A study of Rattus norvegicus with 48 samples.

Results

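The transcripts of 7 GABA-A receptor subunits, Gabra2, Gabra3, Gabra4, Gabra5, Gabrb1, Gabrb2 and Gabrd, were followed in ribosome-bound RNA from the rat nucleus accumbens. They were found by gene name among the 32883 genes of the deposited table, each on 1 row, and all 7 were among the 15580 genes that passed the filter on low counts. D1:Cre rats give RNA of medium spiny neurons that carry the dopamine D1 receptor, and A2a:Cre rats give RNA of those that carry the adenosine A2a and dopamine D2 receptors. In both lines the tagged ribosomes were pulled down with antibodies to green fluorescent protein (translating ribosome affinity purification, TRAP), so a library holds mainly, but not only, RNA of the marked neurons. Adult rats of both sexes took cocaine or saline by self-administration in 10 sessions and were killed on day 1 or 40 of withdrawal. The 6 groups were D1:Cre saline day 1, D1:Cre cocaine day 1, D1:Cre cocaine day 40, A2a:Cre saline day 1, A2a:Cre cocaine day 1 and A2a:Cre cocaine day 40, with 8 libraries each. The saline groups were all of day 1, so at day 40 cocaine cannot be told apart from time. Sex is not given per library, and the input RNA was not analysed here.

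GABA-A receptors are chloride channels opened by GABA, the main inhibitory transmitter, and each is built from a mix of subunits that sets where it sits and how it responds. Receptors with Gabra2 or Gabra3 and a gamma subunit mostly serve fast inhibition at synapses and bind benzodiazepines. Receptors with Gabra4 and Gabrd mostly lie outside synapses, answer to low ambient GABA and carry a lasting (tonic) current, for which striatal medium spiny neurons are known. Gabra5 is also often found outside synapses. The beta subunits Gabrb1 and Gabrb2 form the GABA binding site together with an alpha subunit. Medium spiny neurons both receive GABA and release it, so these subunits bear on how the neurons inhibit each other.

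Between the neuron types, Gabra5 and the pair of Gabra4 and Gabrd differed in opposite directions: Gabra5 was higher in D1 libraries, and Gabra4 and Gabrd were lower. The direction was the same in all 3 comparisons of neuron types, but each gene passed the test described below in only some of them. Gabra5 passed in saline and on cocaine day 40, Gabra4 on both cocaine days, and Gabrd on day 40 alone. The sequences around the transcription starts of these 3 genes are shown because they are the members whose levels differed between the neuron types. They are RefSeq promoters of the GRCr8 assembly, from 250 bases before the start to 50 after it, written 5′ to 3′ along the gene. The windows are chr14:36944497-36944796 on the plus strand for Gabra4, chr1:117516557-117516856 on the minus strand for Gabra5 and chr5:171252660-171252959 on the minus strand for Gabrd. Capitals in the Gabrd window mark 2 overlapping matches to the Sp1 GC box GGGGCGGGG.
Gabra4: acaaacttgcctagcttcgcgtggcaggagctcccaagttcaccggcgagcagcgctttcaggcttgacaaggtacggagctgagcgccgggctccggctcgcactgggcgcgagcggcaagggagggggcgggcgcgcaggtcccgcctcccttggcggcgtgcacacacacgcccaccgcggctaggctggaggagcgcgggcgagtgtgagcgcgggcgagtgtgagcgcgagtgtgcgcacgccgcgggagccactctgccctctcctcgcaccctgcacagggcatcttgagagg
Gabra5: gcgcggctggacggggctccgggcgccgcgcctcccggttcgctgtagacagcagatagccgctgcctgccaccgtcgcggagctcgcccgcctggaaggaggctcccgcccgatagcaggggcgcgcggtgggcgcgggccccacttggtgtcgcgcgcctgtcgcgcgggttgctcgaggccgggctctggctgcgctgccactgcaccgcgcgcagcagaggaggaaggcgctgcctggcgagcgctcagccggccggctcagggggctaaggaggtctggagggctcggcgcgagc
Gabrd: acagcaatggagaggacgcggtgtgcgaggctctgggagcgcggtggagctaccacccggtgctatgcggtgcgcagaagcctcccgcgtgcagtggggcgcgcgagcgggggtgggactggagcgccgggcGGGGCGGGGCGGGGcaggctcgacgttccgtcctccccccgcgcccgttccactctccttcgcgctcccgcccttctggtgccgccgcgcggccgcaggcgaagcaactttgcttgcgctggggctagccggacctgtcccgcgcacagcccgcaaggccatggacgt

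All 3 windows were rich in G and C. The GC share was 70.7% in the Gabra4 window, 76.3% in the Gabra5 window and 73.7% in the Gabrd window, while the median over the 33469 promoters in the RefSeq table was 51.7%. Of all promoters, 7.44% had a GC share at or above that of Gabra4, 2.41% at or above that of Gabra5 and 4.27% at or above that of Gabrd. The windows held 35, 42 and 40 CpG dinucleotides in the same order, against a median of 7. The other matched windows were nearer to or below the median, with 39.3% GC for Gabra3, 49.3% for Gabrb1 and 44.0% for Gabrb2. Gabra2 had no entry. The motifs named next were searched on both strands. No member window held the cAMP response element TGACGTCA (1.83% of all promoters), its core TGACG (21.2%) or the Egr site GCGTGGGCG (0.544%). The Sp1 GC box stood in 9.73% of all promoters and, among the members, in the Gabrd window, and the TATA box TATAAA stood in 14.2% of all and in the Gabra3 window. Such matches are descriptions of letters and were not tied to any measured binding.

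The windows of the beta subunit genes Gabrb1 and Gabrb2 shared a run of 11 bases, the longest they have in common, which holds the NRF1 core motif CGCATGCG. That motif was in 1.66% of all promoters, and it lay 28 bases before the start of Gabrb1 and 94 bases before the start of Gabrb2. A run of this length was not particular to these paralogues. Gabra4 and Gabrd also shared a run of 11 bases, and Gabra4 with Gabrb1 and Gabra5 with Gabrd shared 10. The stretches of 69 bases that hold the run of Gabrb1 and Gabrb2 are shown to let the 2 paralogues be compared, with the shared run in capitals. They lie within chr14:36902844-36903143 on the minus strand and chr10:27439543-27439842 on the plus strand.
Gabrb1: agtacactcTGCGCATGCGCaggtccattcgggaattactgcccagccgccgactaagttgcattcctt
Gabrb2: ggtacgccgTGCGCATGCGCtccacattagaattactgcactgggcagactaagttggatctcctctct

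In the GRCr8 order of protein-coding genes, Gabrb1 and Gabra4 are next to each other on chromosome 14, in opposite orientations, and Gabra2 and Gabrg1 follow with 1 gene, Cox7b2, between Gabra4 and Gabra2. Gabra5 follows Gabrg3 on chromosome 1, and Gabrb2 follows Gabra6 on chromosome 10. Of these genes on chromosome 14, Gabra4 passed the test between neuron types described next on both cocaine days but not in saline. Gabrb1, Gabra2 and Gabrg1 passed in no such comparison. The differences of these genes were not tested against each other.

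Depth lay between 5.294 and 55.1 M counts in a library, above 24 M in 47 of the 48. The exception was replicate 7 of the A2a cocaine day 1 group, which stood far above its group in several of the scarcer subunits, as given below. Levels are read counts scaled to the library total over the genes that passed the filter (CPM). The totals were adjusted by trimmed means of M values, and levels are mean ± SD over 8 libraries unless stated. The table gives no transcript lengths, so levels are compared between libraries and not between genes. A difference was called when the edgeR quasi-likelihood test gave a Benjamini-Hochberg adjusted p below 0.05 over all 15580 genes. All 6 tested markers of D1 neurons were higher in D1 libraries and all 7 of D2/A2a neurons lower, in each of the 3 comparisons of neuron types, so the labels fit the markers. In these bulk samples, fewer cells of a type and less RNA per cell cannot be told apart.

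**Figure D1:**
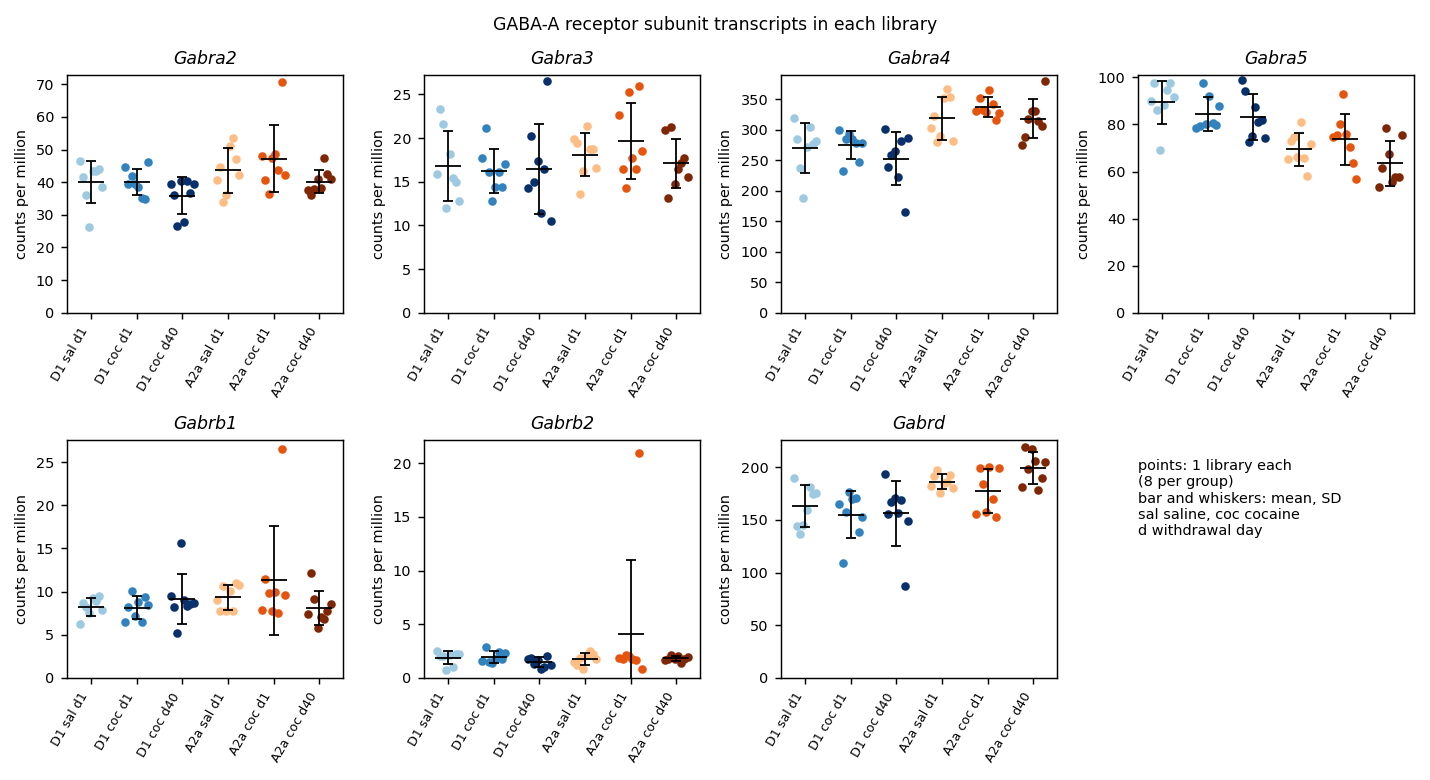
Level of each of the 7 subunits in CPM (vertical axis, linear, from 0) in each of the 48 libraries, by group (horizontal axis; sal, saline; coc, cocaine; d, withdrawal day). Bars and whiskers are the mean and SD of 8 libraries (the lower whisker of Gabrb2 in A2a cocaine day 1 runs below 0 and is cropped); Gabra5 sits higher in the D1 groups, Gabra4 and Gabrd in the A2a groups, and 1 A2a cocaine day 1 library stands apart for Gabrb1 and Gabrb2.

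Gabra4, the alpha subunit of extrasynaptic receptors, was lower in D1 than in A2a neurons of cocaine animals. On cocaine day 1 the lowest, median and highest D1 libraries held 233, 282 and 300.4 CPM, and the A2a libraries held 315, 332 and 366. The groups did not overlap: each of the 8 D1 libraries was below all 8 A2a libraries, as was so for 1.01% of all genes tested. The means of 275 ± 23.1 and 337 ± 16.0 CPM gave a log2 difference of −0.29 ± 0.086 (SE), an edgeR adjusted p of 0.0174. On cocaine day 40 the D1 libraries held 165, 263 and 302 CPM and the A2a libraries 275, 317 and 380.1. Here 5 of the 8 D1 libraries were below all A2a libraries, and the log2 difference was −0.33 ± 0.086 with an edgeR adjusted p of 0.00366. In saline animals the D1 libraries held 188, 279 and 319 CPM and the A2a libraries 280.5, 313 and 366. The saline difference of −0.24 ± 0.086 missed the threshold with an edgeR adjusted p of 0.0797, and 4 of the 8 D1 libraries lay below all A2a libraries. It passed with 1 library left out, at 0.0296 without replicate 7 of D1 cocaine day 40 and at 0.0369 without replicate 1 of D1 saline. A miss in saline does not show that the difference depends on cocaine: the edgeR test of the change in the difference from saline to cocaine day 1 gave −0.057 ± 0.12 with an adjusted p of 0.999.

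Gabrd, the delta subunit that joins Gabra4 in extrasynaptic receptors, was lower in D1 neurons on cocaine day 40. The D1 libraries held 87.4, 162 and 194 CPM (lowest, median, highest) and the A2a libraries 179, 201 and 219. Of the 8 D1 libraries, 7 were below all 8 A2a libraries. The means of 156 ± 31.0 and 199 ± 15.2 CPM differed by −0.35 ± 0.094 on the log2 scale, with an edgeR adjusted p of 0.00500. In saline animals the D1 libraries held 137, 167 and 190.0 CPM and the A2a libraries 175, 185 and 197. On cocaine day 1 they held 109.6, 161 and 176 CPM and 153, 177 and 200.4. Both day 1 differences pointed the same way and missed the threshold: −0.19 ± 0.094 in saline with an edgeR adjusted p of 0.245, and −0.20 ± 0.094 on cocaine day 1 with 0.191. The change in the difference from cocaine day 1 to day 40 was −0.16 ± 0.13 with an adjusted p of 0.748, so a growth of the difference with time was not detected.

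Gabra5, the other alpha subunit often found outside synapses, was higher in D1 neurons. In saline animals the D1 libraries held 69.3, 90.7 and 97.6 CPM (lowest, median, highest) and the A2a libraries 58.2, 68.8 and 80.9. Of the 8 D1 libraries, 7 were above all 8 A2a libraries, and the exception, replicate 4, was the lowest of its group by a wide gap. The means of 89.4 ± 9.09 and 69.4 ± 7.01 CPM differed by 0.36 ± 0.083 on the log2 scale, with an edgeR adjusted p of 0.00203. On cocaine day 40 the D1 libraries held 72.4, 81.5 and 99.0 CPM and the A2a libraries 53.6, 59.6 and 78.6. There 5 of 8 D1 libraries were above all A2a libraries, and the log2 difference was 0.39 ± 0.083 with an edgeR adjusted p of 0.000437. On cocaine day 1 the groups overlapped for all but 1 D1 library, with 78.4, 80.6 and 97.7 CPM in D1 and 56.7, 75.2 and 93.0 in A2a. That difference of 0.19 ± 0.083 had an edgeR adjusted p of 0.132, and it passed at 0.0400 when replicate 4 of A2a cocaine day 1, the highest A2a library, was left out. The differences in saline and on cocaine day 1 were not shown to be unequal: the edgeR test of the change gave −0.17 ± 0.12 and an adjusted p of 0.999.

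The synaptic alpha subunits and the beta subunits did not pass in any comparison of neuron types. Gabra2 had log2 differences of −0.23 to −0.13 in the 3 comparisons, with means of 35.9 to 40.0 CPM in the D1 groups and 40.2 to 47.2 in the A2a groups. Gabra3 group means ran from 16.2 to 19.7 CPM, and its 95% intervals for D1 against A2a, −0.40 to 0.18 in saline, −0.56 to 0.027 on cocaine day 1 and −0.35 to 0.24 on day 40, all held 0. Gabrb1 group means ran from 8.10 to 11.3 CPM. Gabrb2 was the subunit with the fewest reads, 30 to 110 per library, and its group means were 1.47 to 1.95 CPM in 5 groups and 4.12 in the A2a cocaine day 1 group. That last mean rested on 1 library with 20.98 CPM, while the median of the group was 1.80. Relative spreads within groups, averaged over the 6 groups, were 26.0% for Gabrb1 and 49.8% for Gabrb2. They were 11.1% to 11.7% for Gabra4, Gabra5 and Gabrd, 14.8% for Gabra2 and 20.5% for Gabra3. The A2a cocaine day 1 group raised the averages of the beta subunits, with SDs of 6.28 CPM for Gabrb1 and 6.82 CPM for Gabrb2. In the other groups these SDs were 1.04 to 2.93 CPM and 0.220 to 0.615 CPM. The widest interval, that of Gabrb2 on cocaine day 1, ran from −1.67 to −0.13 on the log2 scale with an adjusted p of 0.130.

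Of the 7 subunits, 1 was called between neuron types in saline (Gabra5, higher), 1 on cocaine day 1 (Gabra4, lower) and 3 on cocaine day 40. Of all genes tested, 8.13% were called in saline (4.12% higher and 4.01% lower in D1), 11.1% on cocaine day 1 (5.53% and 5.56%) and 20.4% on day 40 (10.1% and 10.3%). A count of 1 of 7 is near these backgrounds and is no result about the subunits as a set. The median log2 difference of the 7 subunits was −0.13, −0.27 and −0.16 in the 3 comparisons, and that of all genes was 0.0042, −0.0027 and −0.0086. The 3 comparisons use different libraries. A share of all genes with separated libraries was worked out only for the full separation of Gabra4 on cocaine day 1. The partial counts of libraries given above for Gabra4, Gabrd and Gabra5 are therefore descriptions, with no background beside them.

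**Figure D2:**
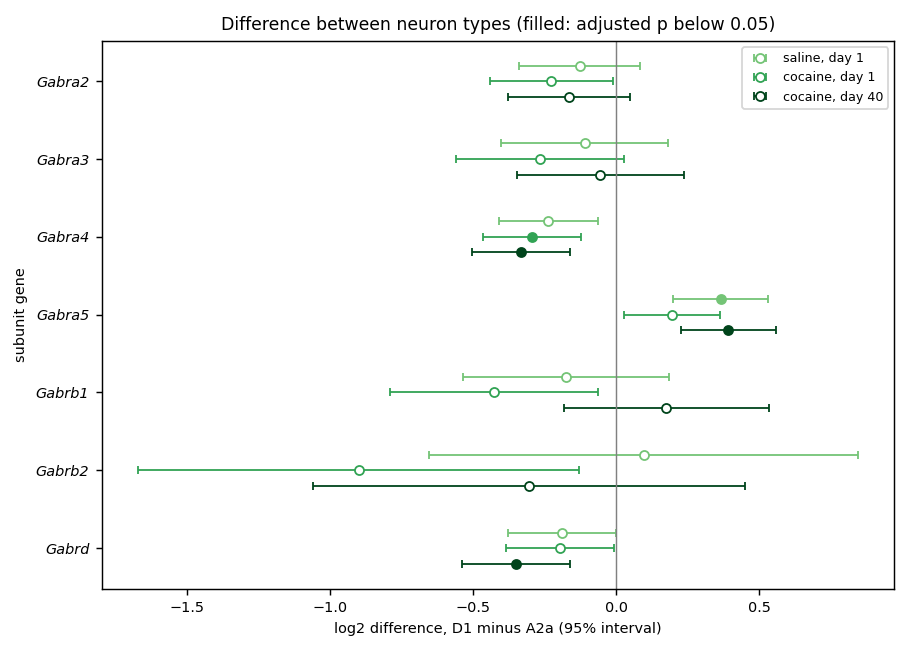
Log2 difference between D1 and A2a libraries (horizontal axis, D1 minus A2a) for each subunit (vertical axis) in saline animals, on cocaine day 1 and on cocaine day 40, with 8 libraries a group and 95% intervals from the edgeR fit. Filled points have an adjusted p below 0.05: Gabra5 lies at 0.36 and 0.39 in saline and on day 40, Gabra4 at −0.29 and −0.33 on the cocaine days, and Gabrd at −0.35 on day 40.

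Several features of the libraries moved with neuron type beside these differences. The sum of 8 markers shared by all medium spiny neurons, such as Ppp1r1b, Pde10a and Adcy5, ran from 5647 to 7489 CPM in D1 saline and from 7796 to 9239 in A2a saline, from 5578 to 8185 and 6941 to 9228 on cocaine day 1, and from 3437 to 8203 and 6758 to 10313 on day 40. The sum of 10 interneuron markers was 762 to 1570 CPM over the D1 libraries and 168 to 388 over the A2a libraries, with Npy at 0 in every library. Sst made up most of that sum, with group means of 885 to 1114 CPM in D1 and 195 to 259 in A2a. Of the 9 tested interneuron markers, 5, 6 and 6 were called higher in D1 in the 3 comparisons, and 1, Th, was called lower in each. On day 40, 7 of 10 microglia markers were lower in D1, and their sum was 169 to 292 CPM in D1 against 254 to 578 in A2a. The part of these markers in the differences of Gabra4, Gabra5 and Gabrd was not tested.

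A number in the middle of each library's description, whose meaning is not given, was 85 for all D1 and 88 for all A2a libraries of day 40, so at day 40 it and the neuron type cannot be told apart. Day 1 libraries carried 89, 91 or 92 in both neuron types, so the number and withdrawal day cannot be told apart in any comparison of day 40 with day 1, those of other genes given below included. Within these, Gabra5 in saline was higher in D1 by 0.52, 0.31 and 0.27 on the log2 scale, the last of 4 D1 libraries against 1 A2a library. Gabra4 on cocaine day 1 was lower in D1 within each number as well, with log2 differences of −0.31, −0.22 and −0.29, the second of 2 libraries against 1. Both differences thus had the same sign within each number.

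The balance of Gabra5 and Gabra4 reads within a library does not depend on scaling. It was looked at after the levels were seen and is given without a test. Gabra5 and Gabra4 were picked because they differed in opposite directions in these same libraries. A separation of the neuron types by their ratio therefore restates those differences and is no further support. In saline, Gabra5 reads amounted to 0.334 ± 0.0292 of the Gabra4 reads in D1 libraries (range 0.281 to 0.369) and to 0.220 ± 0.0344 in A2a libraries (0.164 to 0.267). On cocaine day 40 the ratios were 0.340 ± 0.0810 (0.258 to 0.494) and 0.199 ± 0.0236 (0.167 to 0.247). The groups did not overlap in either case, and how often ratios of other genes do so was not counted. On cocaine day 1 the groups overlapped slightly, at 0.309 ± 0.0303 (0.261 to 0.342) in D1 and 0.219 ± 0.0323 (0.173 to 0.283) in A2a. The ratio of Gabrd to Gabra4 reads, by contrast, had group means between 0.525 and 0.630 with overlapping ranges in all 6 groups. These are ratios of reads and not of molecules, because the transcripts differ in length.

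**Figure D3:**
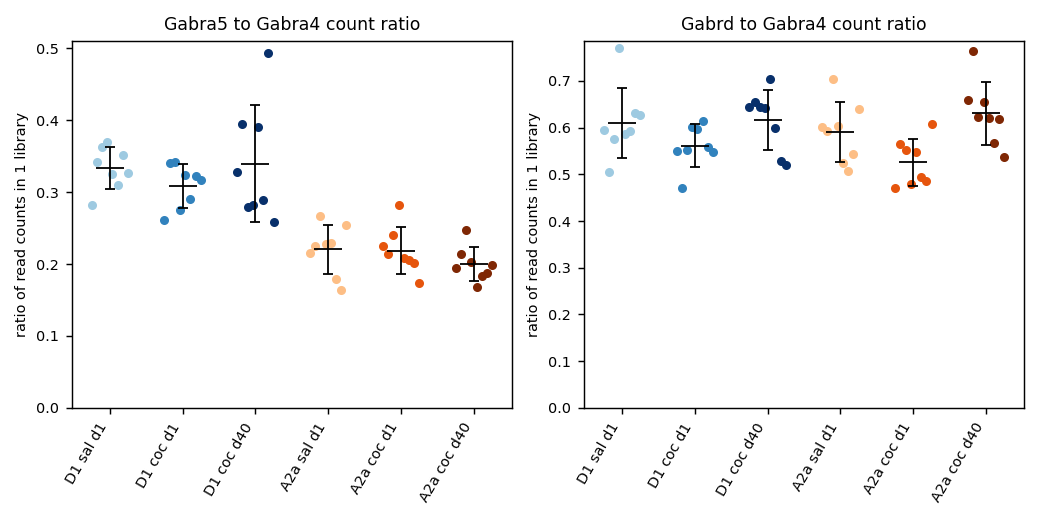
Ratio of Gabra5 to Gabra4 reads (left) and of Gabrd to Gabra4 reads (right) within each library (vertical axes, from 0), by group (horizontal axes; sal, saline; coc, cocaine; d, withdrawal day), with the mean and SD of 8 libraries. In the left panel the D1 groups average 0.309 to 0.340 and the A2a groups 0.199 to 0.220, and in the right panel all group means lie between 0.525 and 0.630.

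Cocaine and withdrawal time gave no called difference in any of the 7 subunits. The edgeR test called 0 of 7 in each of 10 comparisons, and DESeq2 and limma-voom also called 0. At an unadjusted p below 0.05 there were 4 of 7 in A2a neurons for day 40 against day 1, 3 for that comparison averaged over both neuron types, 1 each in A2a cocaine day 1 against saline, its average over both and the interaction with day, and 0 in the other 5. Of all 15580 genes, 1641 and 2549 had such a p in the first and second of these comparisons. Without replicate 7 of A2a cocaine day 1, the A2a differences of day 40 from day 1 went from −0.22 to −0.13 for Gabra2, from −0.43 to −0.18 for Gabrb1 and from −0.997 to 0.080 for Gabrb2. Few genes were called in several of these comparisons at all. Against saline, cocaine day 1 gave 0% of all genes called in D1 neurons, 0.0706% in A2a neurons and 0% averaged over both, with 363, 932 and 753 genes at an unadjusted p below 0.05. Day 40 against day 1 gave 1.85% in D1, 0.263% in A2a and 1.78% averaged over both. Day 40 against saline gave 2.61% in D1 and 0% in A2a, where 838 genes had an unadjusted p below 0.05. For the 3 comparisons with 0% called, limma-voom called 0 genes in each, and DESeq2 called 0 in D1 cocaine day 1 against saline, 2 in its average over both neuron types and 4 in A2a day 40 against saline. The change in the neuron-type difference was called in 0.00642% of genes for cocaine and in 0.0642% for withdrawal day. Comparisons that use day 1 cocaine or saline groups share those libraries.

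For Gabra4, the D1 means were 271 ± 41.1 CPM in saline, 275 ± 23.1 on cocaine day 1 and 253 ± 43.6 on day 40, and the A2a means were 319 ± 35.0, 337 ± 16.0 and 318 ± 31.9. An SD of single libraries does not show whether group means differ, so the intervals of the differences are given next. The 95% intervals of cocaine day 1 against saline were −0.15 to 0.20 in D1 and −0.092 to 0.25 in A2a on the log2 scale, and those of day 40 against day 1 were −0.29 to 0.050 and −0.26 to 0.089. Gabrd in A2a libraries went from 186 ± 7.32 CPM in saline to 177 ± 20.9 on cocaine day 1 and 199 ± 15.2 on day 40. In 4 of the 8 A2a day 40 libraries Gabrd was above all of day 1, and the log2 difference of 0.17 ± 0.094 had an edgeR adjusted p of 0.543. Gabrd in D1 libraries was 163 ± 19.8, 155 ± 22.0 and 156 ± 31.0 CPM. For these extrasynaptic subunits the intervals in D1 neurons, −0.26 to 0.11 for cocaine day 1 and −0.18 to 0.20 for day 40 against day 1 in the case of Gabrd, leave room for modest changes.

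Gabra5 had the smallest adjusted p of the 7 in A2a neurons over withdrawal. Its A2a means were 69.4 ± 7.01 CPM in saline, 73.8 ± 10.9 on cocaine day 1 and 63.4 ± 9.46 on day 40. The log2 difference of day 40 from day 1 was −0.22 ± 0.083, with an unadjusted p of 0.0103 and an edgeR adjusted p of 0.264, and 2 of 8 day 40 libraries were below all of day 1. In D1 neurons the means were 89.4 ± 9.09, 84.6 ± 7.23 and 83.1 ± 9.71 CPM, and the same difference was −0.025 ± 0.083. The 2 changes over time differed by 0.20 ± 0.12, with an adjusted p of 0.586. None of these passed the adjusted threshold.

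Gabra2 fell short of the threshold in the same way. Its A2a means were 43.6 ± 6.86, 47.2 ± 10.4 and 40.2 ± 3.62 CPM in saline, on cocaine day 1 and on day 40, and its D1 means were 39.9 ± 6.45, 40.0 ± 4.09 and 35.9 ± 5.59. Averaged over both neuron types, day 40 against day 1 gave −0.19 ± 0.075 with an edgeR adjusted p of 0.182. Gabra3 means ranged from 16.2 ± 2.56 CPM in D1 cocaine day 1 to 19.7 ± 4.37 in A2a cocaine day 1. The fold intervals of Gabra3 were wide, −0.34 to 0.24 on the log2 scale for cocaine day 1 against saline in D1.

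Gabrb2 showed the largest point estimates, and 1 library carried them. In A2a neurons, cocaine day 1 against saline gave 1.05 ± 0.38 on the log2 scale, with an unadjusted p of 0.00902 and an edgeR adjusted p of 0.633. The lowest, median and highest A2a cocaine day 1 libraries held 0.834, 1.80 and 21.0 CPM, against 0.848, 1.81 and 2.48 in saline and 1.44, 1.78 and 2.14 on day 40. The medians of the 3 groups were thus almost equal, and the highest library was replicate 7, the one with 5.294 M counts. It was also the highest for Gabrb1, with 26.5 CPM against a median of 9.70, and for Gabra2, with 70.7 CPM against a median of 45.6. Gabrb1 in A2a neurons went from 9.33 ± 1.44 CPM in saline to 11.3 ± 6.28 on cocaine day 1 and 8.10 ± 1.94 on day 40. Its change over withdrawal differed between D1 and A2a by 0.60 ± 0.25, with an unadjusted p of 0.0218 and an edgeR adjusted p of 0.368, and by 0.35 without that library. In D1 libraries Gabrb1 was 8.26 ± 1.04, 8.12 ± 1.32 and 9.13 ± 2.93 CPM.

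**Figure D4:**
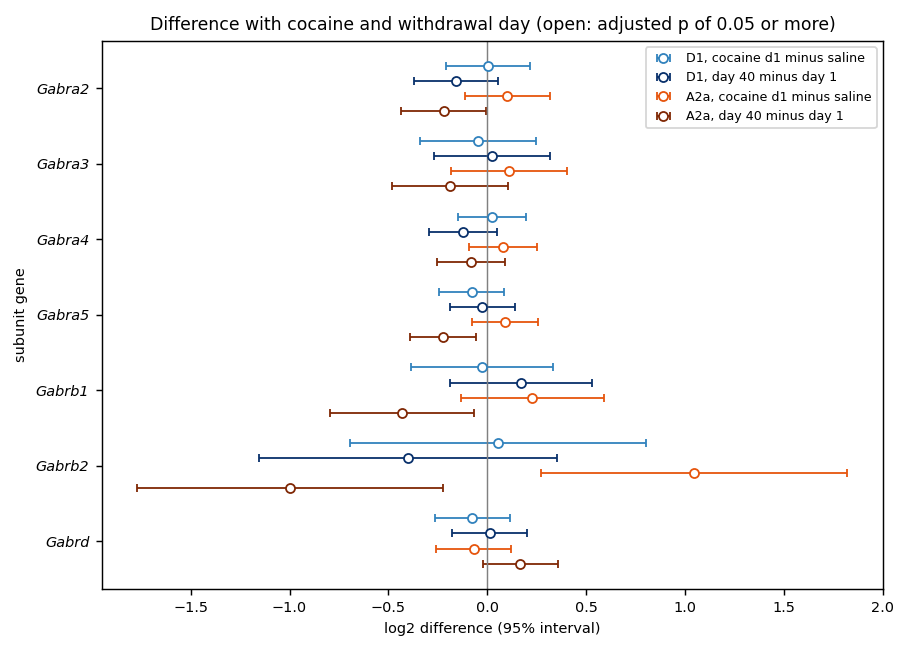
Log2 difference (horizontal axis) of cocaine day 1 from saline and of cocaine day 40 from day 1, in D1 and in A2a libraries, for each subunit (vertical axis), with 8 libraries a group and 95% intervals from the edgeR fit. All points are open, since none had an adjusted p below 0.05; the widest intervals are those of Gabrb2, whose A2a estimate of 1.05 for cocaine day 1 rests on 1 library.

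Within groups, the subunits did not vary independently from library to library. After the mean of each group was taken off the log2 CPM, Gabra4 and Gabrd rose and fell together over the 48 libraries, with Pearson's r of 0.706 and Spearman's rho of 0.597. Both had a permutation p of 1e-05, the smallest that 100000 permutations within groups can give, and 0.00021 after adjustment over the 21 pairs of members. Without the 2 libraries farthest from the median, r was 0.58, and without replicate 7 of D1 cocaine day 40 it was 0.558. Within the description's middle numbers r was 0.9, 0.302, 0.742, 0.349 and 0.621 for 85, 88, 89, 91 and 92. Gabra3 ran against Gabrd, with r of −0.577 and rho of −0.472 (permutation, adjusted p of 0.00262 and 0.0153), r of −0.512 without the 2 farthest libraries, and values of −0.446 to −0.719 within the middle numbers. Gabra2 followed Gabra4 with r of 0.475 and rho of 0.553 (permutation, adjusted p of 0.0125 and 0.00199), and r of 0.46 without 2. Gabra3 went with Gabrb2 at r of 0.44 and rho of 0.43 (permutation, adjusted p of 0.00808 and 0.0166). It also went with Gabra2 at r of 0.443 and rho of 0.411 (permutation, adjusted p of 0.0172 and 0.0273). For Gabra3 with Gabra2, r was 0.334 without the 2 farthest libraries and ran from 0.0316 to 0.711 within the middle numbers. For Gabra3 with Gabrb2 these values were 0.436 and 0.121 to 0.743. Gabra2 with Gabrb2 passed on r alone (permutation, adjusted p of 0.00808 for r and 0.051 for rho), and no other pair passed on either measure. For Gabra2 with Gabrb2, r was 0.583, fell to 0.335 without the 2 farthest libraries, and ran from −0.631 to 0.859 within the middle numbers. Gabra5 was not tied to any other member past the threshold.

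The same libraries differed in their medium spiny neuron markers. The summed level of the 8 shared markers went with Gabra4 at r of 0.741 and rho of 0.685 and with Gabrd at r of 0.768 and rho of 0.646 (permutation, adjusted p of 0.000175 for r and 0.00035 for rho in both, over 70 relations of members with marker sums). It ran against Gabra3 at r of −0.666 and rho of −0.599 (permutation, adjusted p of 0.000175 and 0.0007). Without the 2 farthest libraries these r were 0.601, 0.581 and −0.602. Within the middle numbers they ran from 0.149 to 0.958 for Gabra4, from 0.291 to 0.888 for Gabrd and from −0.811 to −0.339 for Gabra3. For Gabra5 the relation was near 0, with r of −0.0223. Gabra2, Gabra3 and Gabrb2 ran against the sums of microglia markers, with r of −0.465, −0.401 and −0.445, and of astrocyte markers, with r of −0.424, −0.469 and −0.318 (permutation, adjusted p of 0.0075 to 0.0253). Over these 6 relations rho was −0.371 or further from 0 (permutation, adjusted p of 0.00233 to 0.0448), and r without the 2 farthest libraries from −0.522 to −0.307. Gabra2 and Gabrb2 also ran against the markers of oligodendrocytes and their precursors, though Gabra2 with oligodendrocytes missed on rho (permutation, adjusted p of 0.0575). Gabra4 ran against oligodendrocyte markers with r of −0.417 (permutation, adjusted p of 0.0309 for r and 0.0401 for rho). Gabra3, Gabra5 and Gabrb2 ran against endothelial markers, with r of −0.447, −0.465 and −0.274 (permutation, adjusted p of 0.00848, 0.00848 and 0.0468). Gabra3 also ran against the markers of D2/A2a neurons, with r of −0.645, and these are medium spiny neurons as well. Its relation with D1 markers missed (r of −0.361, permutation, adjusted p of 0.0574). Gabrd followed the D1 and the D2/A2a markers, with r of 0.597 and 0.622 (permutation, adjusted p of 0.00112 and 0.00198). Gabra4 followed both too, with r of 0.471 and 0.487 (permutation, adjusted p of 0.0177 and 0.0105). The part of cell makeup in these relations was not tested.

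One library stood apart in several of these measures. Replicate 7 of D1 cocaine day 40 had the lowest Gabra4 (165 CPM) and Gabrd (87.4 CPM) and the highest Gabra3 (26.5 CPM) of all 48 libraries. It also had the lowest sum of shared medium spiny neuron markers (3437 CPM) and, among the D1 libraries, the lowest sum of D1 markers (1150 CPM). Without it the day 40 differences between D1 and A2a were −0.26 for Gabra4 and −0.26 for Gabrd, both still called with edgeR adjusted p of 0.0149 and 0.0132.

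**Figure D5:**
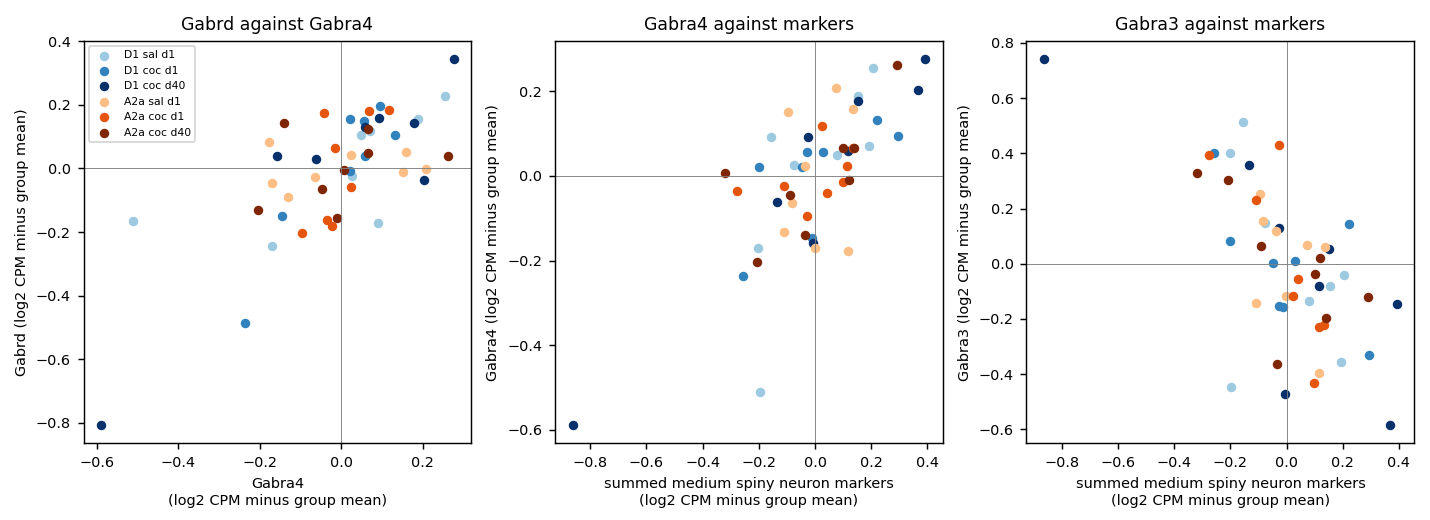
Deviations of log2 CPM from the group mean in the 48 libraries: Gabrd (vertical axis) against Gabra4 (left), and Gabra4 (middle) and Gabra3 (right) against the summed shared medium spiny neuron markers (horizontal axes). Colours are the 6 groups; Gabra4 and Gabrd rise together (r = 0.706), Gabra4 rises with the markers (r = 0.741) and Gabra3 falls (r = −0.666), with replicate 7 of D1 cocaine day 40 at the far left.

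The genes most like each member in this variation within groups were sought among 11807 named genes with a mean of at least 1 CPM, over the 48 libraries. For Gabra4 they were C2cd2l (r of 0.898), Rps6ka3 (0.895) and the potassium channel beta subunit Kcnab1 (0.868). For Gabrd they were the actin-capping gene Tmod1 (0.839), Stk32c (0.82) and Tmem41a (0.814). Gabra3 went with Ccdc184 (0.846), Pnma2 (0.826) and Nap1l2 (0.813), and Gabra2 with Anks1b (0.844), Mtpn (0.837) and the G protein alpha subunit Gnao1 (0.816). The nearest genes of Gabrb2 were Sgip1 (0.823), Camta1 (0.806) and the adhesion gene Cntn1 (0.803), those of Gabrb1 were Phip (0.706), Plcxd3 (0.688) and Pak3 (0.641), and those of Gabra5 were Marcks (0.648), Acsl4 (0.648) and Hp1bp3 (0.605). By r of the nearest gene over all 48 libraries, the likeness was strongest for Gabra4 and weakest for Gabra5. By Spearman's rho of that gene it was weakest for Gabrb1, at 0.422, against 0.629 for Gabra5 and 0.846 for Gabra4. Without the 2 farthest libraries, r of the nearest gene was 0.817 for Gabra4 and 0.695 for Gabra5 but 0.421 for Gabrb1. These values share library depth and cell makeup and are given with no p.

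Among the other subunit genes of the receptor, Gabrg3 was called lower in D1 on cocaine day 1, by −0.69 ± 0.21 on the log2 scale with an edgeR adjusted p of 0.0213, but without replicate 7 of A2a cocaine day 1 it was −0.30 with 0.190. Gabre, at 1.86 ± 1.80 CPM in D1 and 0.812 ± 0.449 in A2a on cocaine day 40, was higher in D1 by 1.18 ± 0.42 with an adjusted p of 0.0387. That call was kept in 41 of the 48 fits that each left out 1 library. Its adjusted p was highest, at 0.284, without replicate 7 of D1 cocaine day 40. Gabrg1, next to Gabra2 in the genome, passed in no comparison of neuron types. The interneuron and microglia markers given above moved with neuron type here as well, and their part was not tested.

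Genes that anchor, move or modulate GABA-A receptors were called in both directions between neuron types. Of 22 tested, 2 were higher and 3 lower in D1 in saline, 5 and 3 on cocaine day 1, and 5 and 4 on day 40, with medians of 0.041, 0.016 and −0.013 on the log2 scale. Against the 8.13%, 11.1% and 20.4% of all genes called in the same comparisons, these counts are given as a description of the list. Hap1, a huntingtin partner that takes part in receptor recycling, was higher in D1 by 0.58 ± 0.14 in saline (edgeR adjusted p of 0.00333) and by 0.66 ± 0.14 on cocaine day 1. Plcl1, which binds beta subunits and the receptor-associated protein Gabarap, was lower in D1 on both cocaine days, with log2 differences of −0.46 ± 0.096 and −0.49 ± 0.096. Its relative Plcl2 was lower in saline at −0.24 ± 0.066, and Gabarap was higher in saline at 0.15 ± 0.042. Shisa7, an auxiliary protein of the receptor, was lower on day 40 at −0.32 ± 0.060 (edgeR adjusted p of 7.15e-05), and the inhibitory synapse genes Mdga1 (0.94 ± 0.20 on cocaine day 1) and Iqsec3 (0.95 ± 0.19 on day 40) were higher. For cocaine day 40 against day 1 in D1 neurons, 1 of 22 was called, where 1.85% of all genes were, and it is no result about the list. Trak2, a transport adaptor, was lower on day 40 at −0.33 ± 0.084, with an edgeR adjusted p of 0.0291. That p was 0.1 without replicate 6 of D1 cocaine day 1, and the call was also lost with each of 4 other libraries left out. Gphn, which encodes the synaptic anchor gephyrin, was not analysed here.

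Of 8 tested genes that make, load, take up or break down GABA, 0 were called between neuron types in saline or on cocaine day 1. Of all genes, 8.13% and 11.1% were called there, and 3 and 2 of the 8 had an unadjusted p below 0.05. On cocaine day 40, those higher in D1 included Gad1, a GABA-synthesising enzyme, by 0.23 ± 0.058, and Aldh5a1, an enzyme of GABA breakdown, by 0.26 ± 0.057. Within D1 neurons Gad1 had means of 535 ± 61.0 CPM in saline, 532 ± 56.3 on cocaine day 1 and 622 ± 49.3 on day 40. It was higher on day 40 than on day 1 by 0.22 ± 0.058 (edgeR adjusted p of 0.0298) and than in saline by 0.22 ± 0.058 (0.0285). Aldh5a1 was higher than on day 1 by 0.22 ± 0.057 (0.0329), and the vesicular GABA transporter Slc32a1 was higher than in saline by 0.24 ± 0.062 (0.0255). These 4 calls within D1 neurons were near the threshold: 39, 39, 38 and 46 of the 48 fits that each left out 1 library kept them. In a fit of only the groups compared, Gad1 had adjusted p of 0.1 against day 1 and 0.0731 against saline, and Aldh5a1 0.0724. The sum of microglia markers moved over the same groups: it was 229 to 616 CPM in D1 saline, 168 to 556 on cocaine day 1 and 169 to 292 on day 40, with 2 of 10 markers called lower on day 40 than on day 1 and 3 of 10 lower than in saline. Their part in these 4 calls was not tested. In A2a neurons 0 of 8 were called for day 40 against day 1, where 0.263% of all genes were, and 0 had an unadjusted p below 0.05.

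Among receptors for the same or a related transmitter, Gabbr2, the subunit of the metabotropic GABA-B receptor that couples it to G proteins, was higher in D1 in all 3 comparisons. Its means were 101 ± 14.3 against 82.0 ± 6.37 CPM in saline, 97.7 ± 12.2 against 80.8 ± 5.09 on cocaine day 1 and 118 ± 21.2 against 81.5 ± 4.10 on day 40. The log2 differences were 0.30 ± 0.078, 0.28 ± 0.078 and 0.53 ± 0.078 with edgeR adjusted p of 0.00802, 0.0143 and 1.21e-06, and the second was 0.0559 without replicate 2 of D1 cocaine day 1. The glycine receptor alpha subunit Glra2 was higher in D1 by 1.09 ± 0.30, 1.47 ± 0.31 and 0.97 ± 0.30, and the last was lost at 0.107 without replicate 7 of D1 cocaine day 40. Its partner Glrb was higher on day 40 at 0.26 ± 0.068. Neuronal chloride transport sets the direction of the GABA-A current. Of 10 tested genes of it, 1 was called between neuron types on cocaine day 1, and 0 in saline and on day 40. With 11.1% of all genes called on cocaine day 1, that count is near the background and is no result about the list. The gene was the kinase gene Wnk1, lower in D1 at −0.22 ± 0.067. Its edgeR adjusted p of 0.0242 became 0.114 without replicate 7 of A2a cocaine day 1. The call was also lost without replicate 4 (0.0651) or replicate 7 (0.052) of D1 cocaine day 1.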

How the data were processed

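The authors deposited raw read counts, whole numbers without normalization, for 32883 Ensembl genes in 48 libraries; 12500 genes had no name. The tools were STAR, SAMtools, Trimmomatic and bcl2fastq on genome Rnor_6.0, per the submitters' processing notes. No version, counting program or strand setting is given in the sources used here, so overlapping and antisense genes may share reads. All entries were genes, and none was left out of the depths given above. The totals behind the CPM and the tests were recomputed over the 15580 genes that passed the filter. Of 168 pairs of libraries within groups, 0 held identical counts, and the lowest chi-square per gene was 10.3, so none was a duplicate. The labels speak of 48 brains, so libraries were taken as separate animals.

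Tests used R 4.3.3 and edgeR 4.0.16. After its expression filter (minimum count 10) and scaling of totals by trimmed means (TMM), all 48 libraries entered 1 robust quasi-likelihood model with their 6 groups as terms. Each of 13 contrasts was adjusted over all 15580 genes by Benjamini-Hochberg at 0.05. SE is the log2 difference over the square root of F, and intervals are 95%. Alternatives were other size factors, no filter, DESeq2 1.42.0, limma 3.58.1 (voom), a replicate block, other sets of libraries and each library left out. The steps were tested on simulated counts. Permutations of relations were 100000 within groups, two-sided, on log2 of CPM plus 0.01. Named were all members, up to 3 called genes of each pathway list by smallest p, and the 3 genes nearest to each member. The members and lists were chosen with earlier results of these data known. Some genes of these lists are not reported here.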

Additional observations from a re-analysis of the deposited data

Results flagged for a closer look

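In 6 of the 42 combinations of a subunit and a group, the highest or lowest library lay apart from the others by more than the 95% limit of Dixon's test; chance gives about 1 in 20. The shallowest library, replicate 7 of A2a cocaine day 1, accounted for 3 of them. It held 70.75 CPM of Gabra2 (next library 48.62), 26.51 CPM of Gabrb1 (next 11.41) and 20.98 CPM of Gabrb2 (next 2.097), from 371, 139 and 110 reads. Replicate 7 of D1 cocaine day 40, the library with the lowest sum of shared medium spiny neuron markers, held 87.39 CPM of Gabrd, and the next was 149.2. Replicate 4 of D1 saline held 69.32 CPM of Gabra5 (next 86.3), and replicate 4 of D1 cocaine day 40 held 15.62 CPM of Gabrb1 (next 9.51).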

How the results depend on the processing

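The 5 called differences between neuron types, Gabra5 in saline and on day 40, Gabra4 on both cocaine days and Gabrd on day 40, had the same sign and stayed called under relative log expression size factors, no filter on low counts, DESeq2, limma-voom and fits of only the groups compared. With the replicate number as a block, 91 of 91 values of members kept their call. Here 1, 1 and 3 subunits were called in the 3 comparisons of neuron types and 0 in the other 10. Of 72 pairs of same-numbered libraries, 34 had deviations correlated above 0.1 (range −0.231 to 0.519). Pairs with different numbers were not compared, so whether a shared number marks a shared origin was not tested. With the middle number of the description as a block in day 1 libraries, 42 of 42 values kept their call. Each library left out in turn gave 1 to 2 subunits called in saline, 1 to 2 on cocaine day 1, 3 on day 40 and 0 in the 10 comparisons of drug, day and their interactions. Leaving out both replicate 7 of A2a cocaine day 1 and replicate 7 of D1 cocaine day 40, chosen after seeing the data, raised the count to 2 in saline (Gabra4 at −0.24, edgeR adjusted p of 0.0285) and to 2 on cocaine day 1 (Gabrd at −0.22, 0.0433). The signs of 9 uncalled values changed without replicate 7 of A2a cocaine day 1, among them Gabrb2 on cocaine day 1 between neuron types, which ranged from −1.07 to 0.18 over the alternatives and the libraries left out. Of all genes, each library left out in turn gave 157 to 412 called for day 40 against day 1 in D1 (289 with all; lowest without replicate 6 of D1 cocaine day 1) and 6 to 74 for the interaction with day (10 with all; highest without replicate 2 of that group). Depth limits Gabrb2, at 30 to 110 reads per library. Among the other genes named, fits of only the groups compared missed the threshold for Gabrg3 and Wnk1 on cocaine day 1, for Gabre and Glra2 on day 40 and for Trak2 over time, with adjusted p of 0.0694 to 0.14, and limma-voom missed it for Gabrg3, Gabre and Wnk1, with 0.0644 to 0.157. The cause was not tested.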
